A study of Mus musculus with 12 samples.

Results

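Liver levels of 10 genes that coat lipid droplets, shape them or control their lipolysis were examined in mice: Plin2, Plin3, Plin5, Cideb, Fitm2, Hsd17b13, Pnpla2, Abhd5, G0s2 and Hilpda. They were picked by gene symbol, and all 10 were present among the 19252 genes of the deposited gene table and among the 11376 genes that reached at least 1 TPM (a transcript level scaled by length and by the library's total) in at least 4 of the 12 libraries. None of the 10 passed the test in any of the 3 comparisons. The pattern with the smallest p ran across individual livers: the gene total of Pnpla2, the triglyceride lipase, was low where its inhibitor G0s2 was high.

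All 12 libraries came from total RNA of the liver of C57BL/6 mice, with an age label of 8 weeks and a feeding period of 14 weeks in every group. The NAC_HFD group (4 libraries) had a high fat diet and drinking water with N-acetylcysteine, a thiol antioxidant and cysteine donor, at 2 g per L. The HFD group (4 libraries) had the high fat diet alone, and the NFD group (4 libraries) a normal fat diet. The sources used here do not give the diet composition, the sex or the feeding state at sampling. No N-acetylcysteine group on the normal diet was analysed here. The labels do not say whether the libraries of a group came from separate mice, so the p-values measure the spread between these samples. HFD was compared with NFD for the diet, NAC_HFD with HFD for the compound on that diet, and NAC_HFD with NFD for both together, and each pair of comparisons shares 4 libraries.

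Hepatocytes store surplus fatty acids as triglyceride in cytosolic droplets that bud from the endoplasmic reticulum. Perilipins and other coat proteins cover the droplet and limit the access of lipases. Adipose triglyceride lipase, the product of Pnpla2, starts triglyceride breakdown; Abhd5 encodes its co-activator, and G0s2 and Hilpda encode small proteins that inhibit it.

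Read depth is unknown, because TPM does not keep it. The number of genes at 1 TPM or more ran from 10864 to 11316 per library, and each library's average correlation within its own group ran from 0.978 to 0.989. The 10 hepatocyte markers summed to 55062 to 72858 TPM in NAC_HFD, 50100 to 65053 TPM in HFD and 54248 to 60926 TPM in NFD. The 10 adipocyte markers (9 in the table, none listed at 0 throughout) summed to 1261 to 1803 TPM in NAC_HFD, 1897 to 2082 TPM in HFD and 407 to 868 TPM in NFD, almost all of it Car3, which hepatocytes also express. Adipoq reached at most 0.15 TPM, Plin1 at most 0.27 TPM, Retn at most 0.12 TPM and Slc2a4 at most 0.30 TPM in any library. Cfd ran from 0.11 to 1.75 TPM in NAC_HFD, 4.74 to 32.7 TPM in HFD and 0.05 to 0.58 TPM in NFD. Cidea ran from 0.14 to 0.52 TPM in NAC_HFD, 0.83 to 3.49 TPM in HFD and 0 to 0.15 TPM in NFD. Over the 12 libraries Fabp4 ran from 3.64 to 8.34 TPM and Lpl from 5.32 to 8.82 TPM. The 8 Kupffer cell markers summed to 49.8 to 87.8 TPM in NAC_HFD, 69.8 to 167.6 TPM in HFD and 51.0 to 94.6 TPM in NFD. In whole liver, fewer cells of a type and less RNA per cell cannot be told apart.

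The 10 genes spanned a wide range of levels. Averaged over the 12 libraries, Hsd17b13 stood at 271 TPM, G0s2 at 179.4, Plin2 at 179.3, Cideb at 152.8, Pnpla2 at 34.5, Fitm2 at 22.2, Plin5 at 16.8, Abhd5 at 11.3, Plin3 at 7.62 and Hilpda at 1.38 TPM. Hsd17b13 overlapped G0s2 and Plin2 in its range over the libraries but lay above Cideb in all 12, and Cideb overlapped G0s2 and Plin2. Neighbours among the next 5 genes also overlapped, so those neighbours could not be ranked beyond their spread. The 4 highest genes did not overlap the others, since the lowest of them in any library was G0s2 at 43.6 TPM and the highest of the rest was Pnpla2 at 43.3 TPM, both in 1 liver of the NFD group. Hilpda was the only member near the floor of the test.

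**Figure D1:**
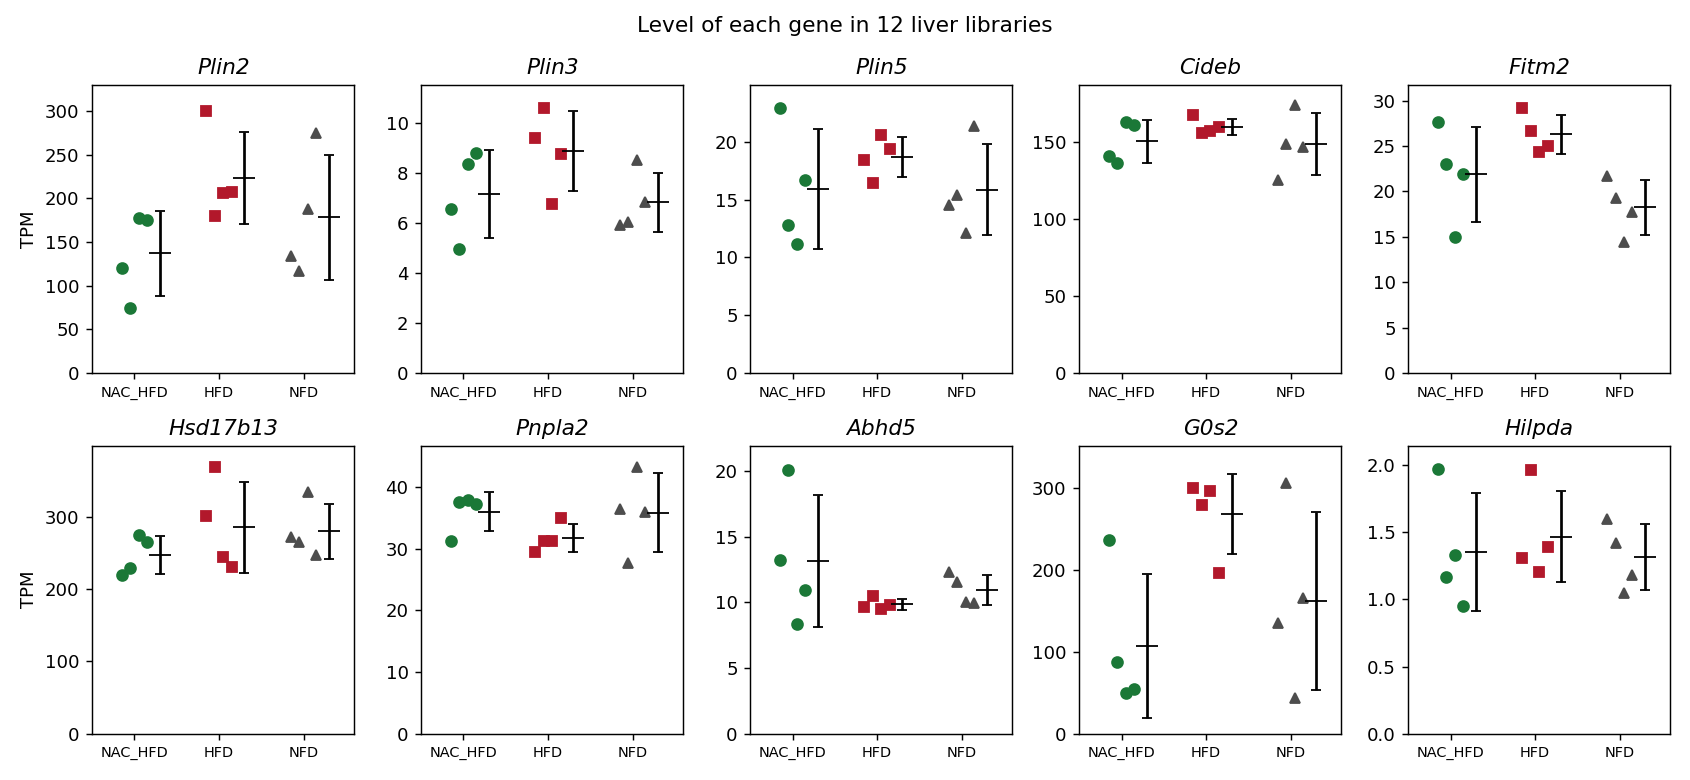
Level in TPM (vertical axes, linear, starting at 0) of each of the 10 genes in the 4 libraries of NAC_HFD, HFD and NFD; points are libraries and bars are the mean ± SD. G0s2 and Plin2 spread widely within groups, and Fitm2 in HFD lay above all 4 NFD libraries.

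Among the coat proteins, Plin2, the perilipin that coats most droplets of the steatotic hepatocyte, was the most abundant perilipin. Plin2 (ENSMUSG00000028494, chr4:86626910-86670217, GRCm38.p6, minus strand) was at 119.8, 74.9, 177.1 and 175.4 TPM in NAC_HFD, 299.9, 179.2, 206.1 and 206.9 TPM in HFD, and 133.4, 116.2, 187.9 and 274.6 TPM in NFD. In the deposited TPM all 4 NAC_HFD livers lay below all 4 HFD livers, narrowly in the nearest case, while HFD and NFD overlapped. The nearest livers, NAC_HFD replicate 3 and HFD replicate 2, had median-of-ratios size factors of 0.955 and 1.10. Division by these factors reverses their order, so the lack of overlap depends on the scaling. Plin2 averaged 136.8 ± 49.1 TPM in NAC_HFD, 223.0 ± 52.8 TPM in HFD and 178.0 ± 71.3 TPM in NFD (SD, n = 4 each). The limma difference on the log2(TPM + 1) scale was -0.75 ± 0.31 (SE) for NAC_HFD minus HFD, with an unadjusted p of 0.0341 and a Benjamini-Hochberg adjusted p of 0.264. For HFD minus NFD it was 0.38 ± 0.31 with an adjusted p of 0.546, so neither passed the threshold of 0.05.

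Plin3 and Plin5, which lie on one chromosome (chr17:56278962-56290511 and chr17:56111597-56117606, GRCm38.p6, both minus strand), were much lower. Plin3, a perilipin found in the cytosol and on small young droplets, was at 6.57, 4.97, 8.35 and 8.80 TPM in NAC_HFD, 9.38, 10.6, 6.75 and 8.76 TPM in HFD, and 5.90, 6.05, 8.51 and 6.82 TPM in NFD. The groups overlapped, and its differences were 0.33 for HFD minus NFD (limma adjusted p = 0.299) and -0.28 for NAC_HFD minus HFD (limma adjusted p = 0.412). Plin5, a perilipin of oxidative tissues that tethers droplets to mitochondria, was at 22.9, 12.8, 11.2 and 16.7 TPM in NAC_HFD, 18.4, 16.4, 20.6 and 19.4 TPM in HFD, and 14.6, 15.4, 12.1 and 21.4 TPM in NFD. The HFD livers lay inside the range of both other groups, and the differences of 0.25 for HFD minus NFD (limma adjusted p = 0.522) and -0.27 for NAC_HFD minus HFD (limma adjusted p = 0.524) did not pass. Plin2 made up 84.6 ± 4.9% of the summed TPM of the 3 perilipins in NAC_HFD, 88.7 ± 2.0% in HFD and 88.0 ± 3.0% in NFD (SD, n = 4 each).

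Cideb, the hepatocyte member of the CIDE family, which acts in droplet fusion and in the lipidation of very low density lipoprotein, was the steadiest of the 10. Cideb (chr14:55754052-55758424, GRCm38.p6, minus strand) was at 140.7, 136.1, 162.8 and 161.1 TPM in NAC_HFD, 167.0, 155.4, 157.0 and 159.5 TPM in HFD, and 125.3, 148.3, 173.8 and 146.4 TPM in NFD. All 3 groups overlapped, with differences of 0.11 for HFD minus NFD (limma adjusted p = 0.596; 95% interval -0.11 to 0.34) and -0.09 for NAC_HFD minus HFD (limma adjusted p = 0.696; 95% interval -0.32 to 0.13).

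Fitm2, which encodes an endoplasmic reticulum protein needed for droplets to bud, had the smallest p of the 10 between the diets. Fitm2 (ENSMUSG00000048486, chr2:163468703-163472629, GRCm38.p6, minus strand) was at 27.7, 23.0, 14.96 and 21.9 TPM in NAC_HFD, 29.2, 26.6, 24.3 and 25.0 TPM in HFD, and 21.7, 19.2, 14.5 and 17.7 TPM in NFD. Every HFD liver was above every NFD liver, while NAC_HFD livers reached into both ranges. Fitm2 averaged 21.9 ± 5.3 TPM in NAC_HFD, 26.3 ± 2.2 TPM in HFD and 18.3 ± 3.0 TPM in NFD (SD, n = 4 each). The HFD minus NFD difference was 0.51 ± 0.16 (SE; 95% interval 0.17 to 0.85) with an unadjusted p of 0.00626 and a limma adjusted p of 0.1005. Without NAC_HFD replicate 3, which enters only through the shared estimate of the spread, the adjusted p was 0.0463. It did not pass with any other single library left out, and was up to 0.250 without HFD replicate 1. The adipocyte marker sum, given above, was also higher in every HFD liver than in every NFD liver. It is almost all Car3, which hepatocytes also express, and its part in the Fitm2 difference was not tested.

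Hsd17b13, a droplet-bound hydroxysteroid dehydrogenase made mainly by hepatocytes, was the most abundant member in NAC_HFD, HFD and NFD by mean. Hsd17b13 (chr5:103955442-103977388, GRCm38.p6, minus strand) was at 220.2, 228.8, 275.0 and 265.2 TPM in NAC_HFD, 300.6, 368.6, 244.0 and 230.3 TPM in HFD, and 272.3, 265.0, 335.1 and 247.5 TPM in NFD. The groups overlapped. The HFD minus NFD difference was 0.01 with a 95% interval of -0.30 to 0.33 (limma adjusted p = 0.974), and its sign turned under 2 of the scalings tried.

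Among the lipolysis genes, G0s2, the inhibitor that binds adipose triglyceride lipase, had the largest differences and the widest spread. G0s2 (ENSMUSG00000009633, chr1:193272160-193273188, GRCm38.p6, minus strand) was at 237.2, 87.4, 49.7 and 54.2 TPM in NAC_HFD, 300.7, 279.6, 296.8 and 196.4 TPM in HFD, and 135.5, 306.1, 43.6 and 165.6 TPM in NFD. In 3 of the 4 NAC_HFD livers G0s2 lay below every HFD liver, NAC_HFD replicate 1 lay inside the HFD range, and NFD livers spread across the whole range. Its means were 107.2 ± 88.3 TPM in NAC_HFD, 268.4 ± 48.8 TPM in HFD and 162.7 ± 108.8 TPM in NFD (SD, n = 4 each). The difference was -1.60 ± 0.61 (SE) for NAC_HFD minus HFD, with an unadjusted p of 0.0256 and a limma adjusted p of 0.239, and 1.0 ± 0.61 for HFD minus NFD with a limma adjusted p of 0.412. The authors' deposited table lists its only transcript at a log2 fold change of -1.21 for NAC_HFD over HFD, with p = 0.0241 and an adjusted p of 0.374.

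Pnpla2, the lipase itself, moved over a far narrower range. Pnpla2 (ENSMUSG00000025509, chr7:141455188-141460743, GRCm38.p6, plus strand) was at 31.3, 37.6, 38.0 and 37.2 TPM in NAC_HFD, 29.4, 31.2, 31.3 and 35.0 TPM in HFD, and 36.5, 27.7, 43.3 and 36.03 TPM in NFD. In 3 NAC_HFD livers Pnpla2 lay above every HFD liver and replicate 1 lay among them, while NFD covered both ranges. The differences were 0.18 for NAC_HFD minus HFD (limma adjusted p = 0.488; 95% interval -0.08 to 0.44) and -0.16 for HFD minus NFD (limma adjusted p = 0.510; 95% interval -0.42 to 0.10).

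Abhd5, the co-activator, was even across the HFD livers. Abhd5 (ENSMUSG00000032540, chr9:122351616-122381524, GRCm38.p6, plus strand) was at 13.2, 20.1, 8.37 and 10.9 TPM in NAC_HFD, 9.61, 10.5, 9.5 and 9.77 TPM in HFD, and 12.3, 11.5, 10.03 and 9.93 TPM in NFD. NAC_HFD replicate 2 was the highest of the 12 and the groups overlapped. The NAC_HFD minus HFD difference was 0.32 with a limma adjusted p of 0.397. Hilpda, the hypoxia-inducible inhibitor of the same lipase (chr6:29272488-29275449, GRCm38.p6, plus strand), was at 1.97, 1.17, 1.33 and 0.95 TPM in NAC_HFD, 1.31, 1.96, 1.20 and 1.39 TPM in HFD, and 1.60, 1.42, 1.05 and 1.18 TPM in NFD. Its groups overlapped and its differences were 0.09 for HFD minus NFD (limma adjusted p = 0.778) and -0.07 for NAC_HFD minus HFD (limma adjusted p = 0.835), small fold changes that the pseudocount of 1 TPM makes smaller still at this level.

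Set against all genes, the counts of members were not high. Between HFD and NFD, 0 of 10 members passed the limma test at an adjusted p of 0.05, where 2.78% of the 11376 genes did, and 1 member (Fitm2) had an unadjusted p under 0.05, where 19.1% of genes did. Groups did not overlap for 1 of 10 members, against 12.4% of genes, and 7.78% of genes had every HFD library above every NFD library, as Fitm2 did. Between NAC_HFD and HFD, 0 of 10 members passed and 0% of all genes did, with 2 members (G0s2 and Plin2) and 16.4% of genes at an unadjusted p under 0.05, and 1 member (Plin2) and 10.2% of genes without overlap, 8.66% of genes with every NAC_HFD library below every HFD library as in Plin2. Between NAC_HFD and NFD, 0 of 10 members passed, 0 had an unadjusted p under 0.05 and 0 were without overlap, where 5.28%, 22.6% and 12% of genes did so, and every member had a limma adjusted p of at least 0.412. For HFD minus NFD, 8 of 10 members had a positive difference, against 52.7% of genes, and the member median was 0.18, against 0.01 over all genes. For NAC_HFD minus HFD 2 of 10 were positive, against 31.5% of genes, and the median was -0.23, against -0.08. These 2 comparisons share the HFD libraries, so the opposite signs are not separate observations. For NAC_HFD minus NFD 6 of 10 were positive, against 37.5% of genes, with a median of 0.02, against -0.07.

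**Figure D2:**
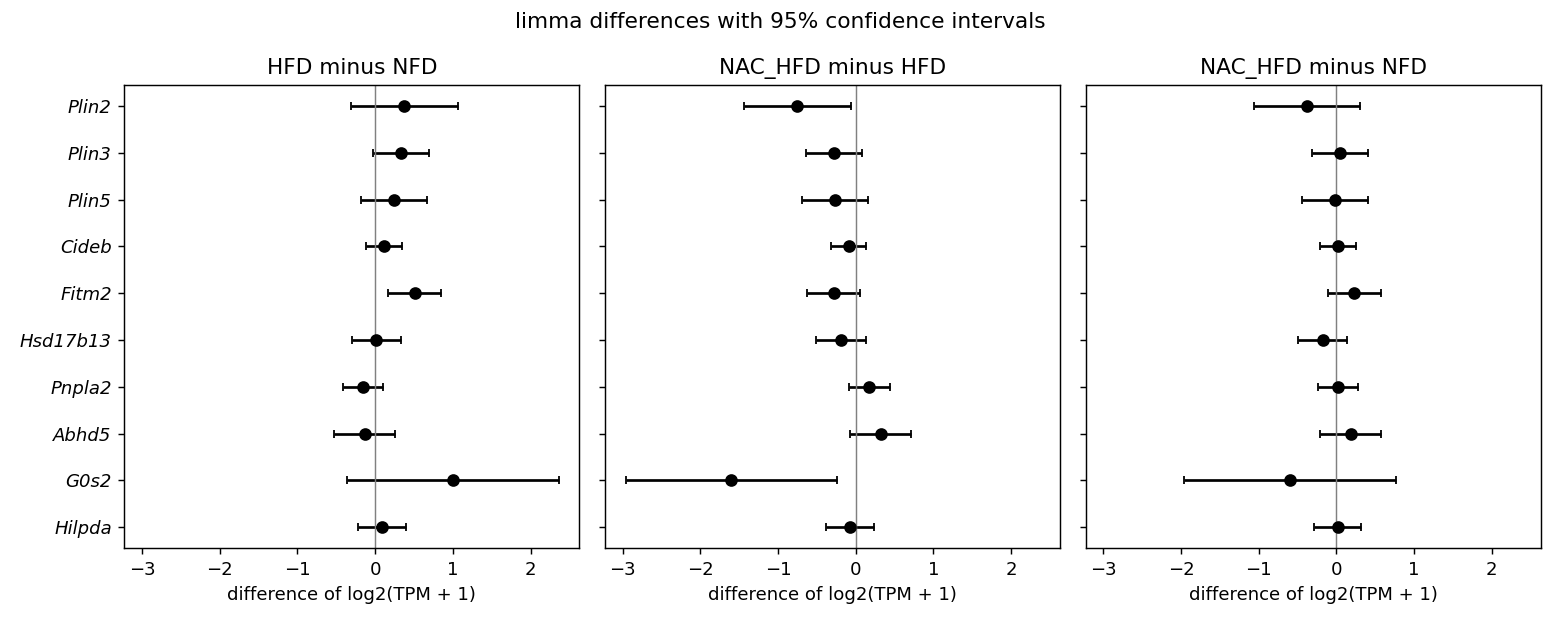
limma difference of mean log2(TPM + 1) with its 95% confidence interval (horizontal axes) for each of the 10 genes, as HFD minus NFD, NAC_HFD minus HFD and NAC_HFD minus NFD. The intervals of G0s2 are the widest, and the intervals that leave out 0 belong to Fitm2 for HFD minus NFD and to Plin2 and G0s2 for NAC_HFD minus HFD; none passed after adjustment over all genes.

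The members differed in how evenly the livers of a group expressed them. The SD within groups on the log2 scale was 0.91 for G0s2, at the 99.5th percentile of all tested genes, and 0.50 for Plin2, at the 96.9th percentile, where the median gene had 0.18. Pnpla2, at 0.18, stood near that median and Cideb, at 0.14, below it. HFD was the group with the smallest SD for 7 of the 10 members, against 46.4% of all tested genes. In G0s2 the SD was 1.02 in NAC_HFD, 0.29 in HFD and 1.16 in NFD, and in Abhd5 0.49 in NAC_HFD, 0.06 in HFD and 0.14 in NFD.

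Over the 45 pairs of members, 2 pairs were related across the 12 libraries after adjustment, and both ran in opposite directions. How often pairs of other genes reach such an r over these libraries was not tested, so the count is not read as particular to the members. Pnpla2 and G0s2, the lipase and its inhibitor, had a Pearson r of -0.90 (permutation p = 5.0e-05, adjusted over the 45 pairs 0.00225) and a Spearman rho of -0.97 (adjusted permutation p = 0.00045, from the smallest p that 100000 permutations can give). Without the 2 libraries farthest from the median of Pnpla2, both of the NFD group, r was -0.88, and for the deviations from the group means it was -0.90. In the libraries the order was nearly complete. The liver with the least Pnpla2, NFD replicate 2 at 27.7 TPM, had the most G0s2, 306.1 TPM, and the liver with the most Pnpla2, NFD replicate 3 at 43.3 TPM, had the least G0s2, 43.6 TPM. NAC_HFD replicate 1, the liver of its group with G0s2 at 237.2 TPM, was also the one with Pnpla2 at 31.3 TPM. These values are gene totals. The main Pnpla2 mRNA, ENSMUST00000164016, was also lowest in NFD replicate 2 (16.7 TPM) and highest in NFD replicate 3 (28.4 TPM). Elsewhere its order was looser. It was at 17.2 TPM in NAC_HFD replicate 2, with G0s2 at 87.4 TPM, and at 26.5 TPM in NFD replicate 4, with G0s2 at 165.6 TPM. The relation of this mRNA to G0s2 was not tested.

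Plin2 and Abhd5, a droplet coat and the lipase co-activator, had a Pearson r of -0.84 (permutation p = 0.00087, adjusted 0.0196). The Spearman rho of -0.78 did not pass (permutation p = 0.0037, adjusted 0.0832). Without NAC_HFD replicate 2 and HFD replicate 1, which lie farthest from the median of Plin2, r was -0.71, and for the deviations from the group means it was -0.79. NAC_HFD replicate 2 had the least Plin2, 74.9 TPM, and the most Abhd5, 20.1 TPM, and without that library r was -0.70. All libraries share a fixed TPM total, and the labels name no batch.

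**Figure D3:**
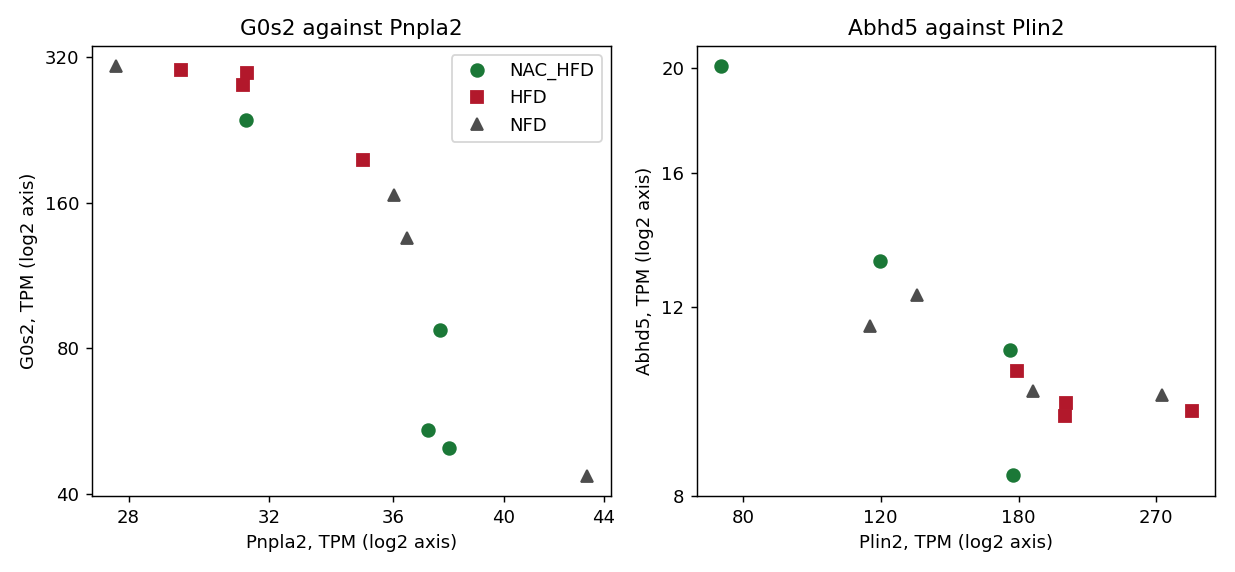
G0s2 against Pnpla2 (left) and Abhd5 against Plin2 (right), in TPM on log2 axes, 1 point per library, for NAC_HFD, HFD and NFD. G0s2 is at 306.1 TPM in the library with Pnpla2 at 27.7 TPM and at 43.6 TPM in the library with Pnpla2 at 43.3 TPM, and NAC_HFD replicate 2 stands apart at the upper left of the right panel.

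The promoters of G0s2, Pnpla2 and Abhd5 are shown because these genes belong to the pairs whose levels ran in opposite directions. The window for Plin2 precedes a transcript start inside the gene's span and is not printed. Each line holds the 250 bases before the RefSeq start of the gene (GRCm38.p6), in the direction of transcription, at chr1:193273189-193273438 (minus strand) for G0s2, chr7:141454938-141455187 (plus strand) for Pnpla2 and chr9:122351366-122351615 (plus strand) for Abhd5. Capitals mark matches to the motifs searched.
G0s2: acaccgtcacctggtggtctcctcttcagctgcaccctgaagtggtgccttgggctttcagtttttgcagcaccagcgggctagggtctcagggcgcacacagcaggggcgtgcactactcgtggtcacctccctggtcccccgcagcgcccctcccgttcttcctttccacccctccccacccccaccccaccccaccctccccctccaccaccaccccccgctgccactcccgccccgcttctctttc
Pnpla2: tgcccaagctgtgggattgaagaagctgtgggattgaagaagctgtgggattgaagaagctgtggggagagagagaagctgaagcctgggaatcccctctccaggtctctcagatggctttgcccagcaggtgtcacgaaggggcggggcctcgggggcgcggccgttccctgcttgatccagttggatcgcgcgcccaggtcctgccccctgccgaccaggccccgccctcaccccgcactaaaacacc
Abhd5: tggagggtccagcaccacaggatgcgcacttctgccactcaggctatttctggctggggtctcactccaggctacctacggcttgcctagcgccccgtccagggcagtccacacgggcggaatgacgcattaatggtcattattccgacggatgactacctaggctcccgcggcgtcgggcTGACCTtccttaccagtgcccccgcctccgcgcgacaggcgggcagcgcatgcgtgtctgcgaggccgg
The motifs were searched on both strands in the 12 windows of the 10 members, each of 250 bases before a transcript start in the RefSeq table, and in all 32851 windows of the same length. The nuclear receptor half-site AGGTCA, read as TGACCT on the other strand, occurred in the windows of Plin2, Abhd5, Hsd17b13 and Plin5, and in 14% of all windows. Of the 3 printed windows, Abhd5 held it 69 to 64 bases before the start, and the windows of G0s2 and Pnpla2 held no match to any motif searched. The direct repeat bound by PPAR and RXR, 2 copies of AGGTCA with 1 base between them, was in 0 of the 12 windows and in 0.0335% of all, and the forkhead motif TGTTTAC in 0 of the 12 and in 3.17% of all. The sequence ACGTG, searched as a hypoxia-inducible factor core, was in 1 of the 12 windows, of Hilpda, and in 16.6% of all. Other forms of that core were not searched. TATAAA was in 1 of the 12 windows, of Cideb, and in 12.4% of all. These matches describe letters in the windows only.

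**Figure D4:**
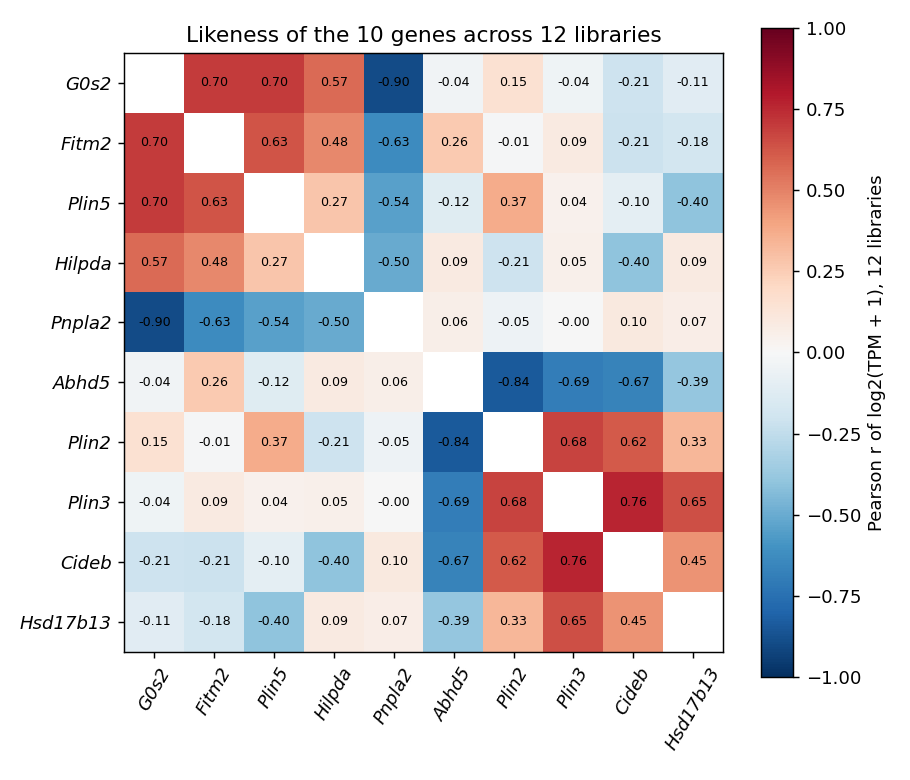
Pearson r of log2(TPM + 1) over the 12 libraries for every pair of the 10 genes (both axes list the genes; colour runs from -1 to 1). G0s2 with Pnpla2 at -0.90 and Plin2 with Abhd5 at -0.84 are the strongest negative values, and Plin3 with Cideb at 0.76 the strongest positive one.

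The remaining relations among members are given as a description, since none passed after adjustment. The nearest member by r was Plin3 for Plin2 (0.68) and for Hsd17b13 (0.65), Cideb for Plin3 (0.76), and G0s2 for Plin5 (0.70), Fitm2 (0.70) and Hilpda (0.57). Pnpla2 and Abhd5 had no member close to them, with highest values of 0.10 to Cideb and 0.26 to Fitm2. Over all tested genes the 5 most like Plin2 were Acot2, a mitochondrial acyl-CoA thioesterase (r = 0.95), Crat, carnitine acetyltransferase (0.93), Rtf2 (0.92), Pctp, a phosphatidylcholine transfer protein (0.92), and Crot, peroxisomal carnitine octanoyltransferase (0.92). The 5 most like Fitm2 were Arl6ip1 (0.95), Steap4 (0.91), Prok1 (0.90), Zfp11 (0.89) and Nfil3 (0.89). They are the highest of 11376 genes over 12 libraries and carry no p.

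Ratios within a library set the lipase against its partners. The ratio of G0s2 to Pnpla2 TPM was 7.58, 2.32, 1.31 and 1.46 in NAC_HFD, 10.2, 8.95, 9.47 and 5.61 in HFD, and 3.71, 11.1, 1.01 and 4.60 in NFD. In 3 of 4 NAC_HFD livers it was below every HFD liver, and NFD overlapped both. The log2 difference for NAC_HFD minus HFD was -1.79 (exact two-sided permutation p = 0.0571, where 4 against 4 libraries cannot go below 0.0286; adjusted over 12 ratio tests 0.686). The ratio of Abhd5 to Pnpla2 averaged 0.368 ± 0.139 in NAC_HFD, 0.311 ± 0.025 in HFD and 0.315 ± 0.080 in NFD (SD, n = 4 each). None of the 12 ratio tests, which also covered Plin2 to Plin5 and Hsd17b13 to Plin2, passed. A lone ratio at the smallest exact p of 0.0286 could not pass after adjustment over 12 tests, so no conclusion is drawn from this. The summed TPM of the 10 members was 821.6, 626.9, 746.7 and 752.4 in NAC_HFD, 1166, 1080, 997.5 and 892.4 in HFD, and 759.0, 916.9, 829.8 and 927.1 in NFD. Each NAC_HFD sum was below each HFD sum, a total made up mostly of Hsd17b13, G0s2, Plin2 and Cideb.

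Transcripts showed which isoforms carried each gene. Plin2, Plin3, Cideb, Fitm2, Hsd17b13, G0s2 and Hilpda each had 1 transcript with over 90% of the gene's mean level, from 91.9% in Fitm2 to 100% in G0s2, whose single transcript was the only one listed. Plin5 was split between ENSMUST00000019808 with 51.2% and ENSMUST00000113072 with 48.8%. Abhd5 was carried by the mRNA ENSMUST00000156520 (82.1%) and a transcript filed as lncRNA, ENSMUST00000214061 (16.7%). In NAC_HFD replicate 2 that lncRNA reached 6.70 TPM while the mRNA was at 13.4 TPM, so the mRNA alone was also highest there. The authors' deposited table lists this lncRNA at a log2 fold change of 1.46 for NAC_HFD over HFD, with p = 0.00653 and an adjusted p of 0.198.

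Pnpla2 was carried mainly by ENSMUST00000164016 (63.9%) and ENSMUST00000064151 (23.6%). A minor mRNA, ENSMUST00000165487 (5.03%), was at 0.24, 4.83, 5.70 and 0 TPM in NAC_HFD, 0.26, 0.27, 0 and 0 TPM in HFD, and 1.79, 0, 4.16 and 3.60 TPM in NFD. NAC_HFD and NFD livers thus divided into some at 0 or near it and some above 1 TPM, and no HFD liver was above 0.27 TPM. On the log2(TPM + 0.1) scale its limma adjusted p was 0.652 for NAC_HFD minus HFD and 0.540 for HFD minus NFD, while the authors' deposited table lists log2 fold changes of 4.52 and -4.20 for these comparisons with adjusted p of 0.236 and 0.243. A minor Plin2 transcript, ENSMUST00000140382 (0.19% of the gene), averaged 0.435 TPM in HFD and 0.588 TPM in NFD. It was listed at 0 in all 4 NAC_HFD libraries, and also in HFD replicate 2 and NFD replicate 2. Its limma adjusted p for NAC_HFD minus HFD was 0.458. None of the 18 tested mRNA transcripts of the members (of 23 in the table) passed the limma test in any comparison, where the share of the 31185 tested mRNA transcripts that passed was 0.205% between HFD and NFD, 0.0192% between NAC_HFD and HFD, and 0.404% between NAC_HFD and NFD.

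**Figure D5:**
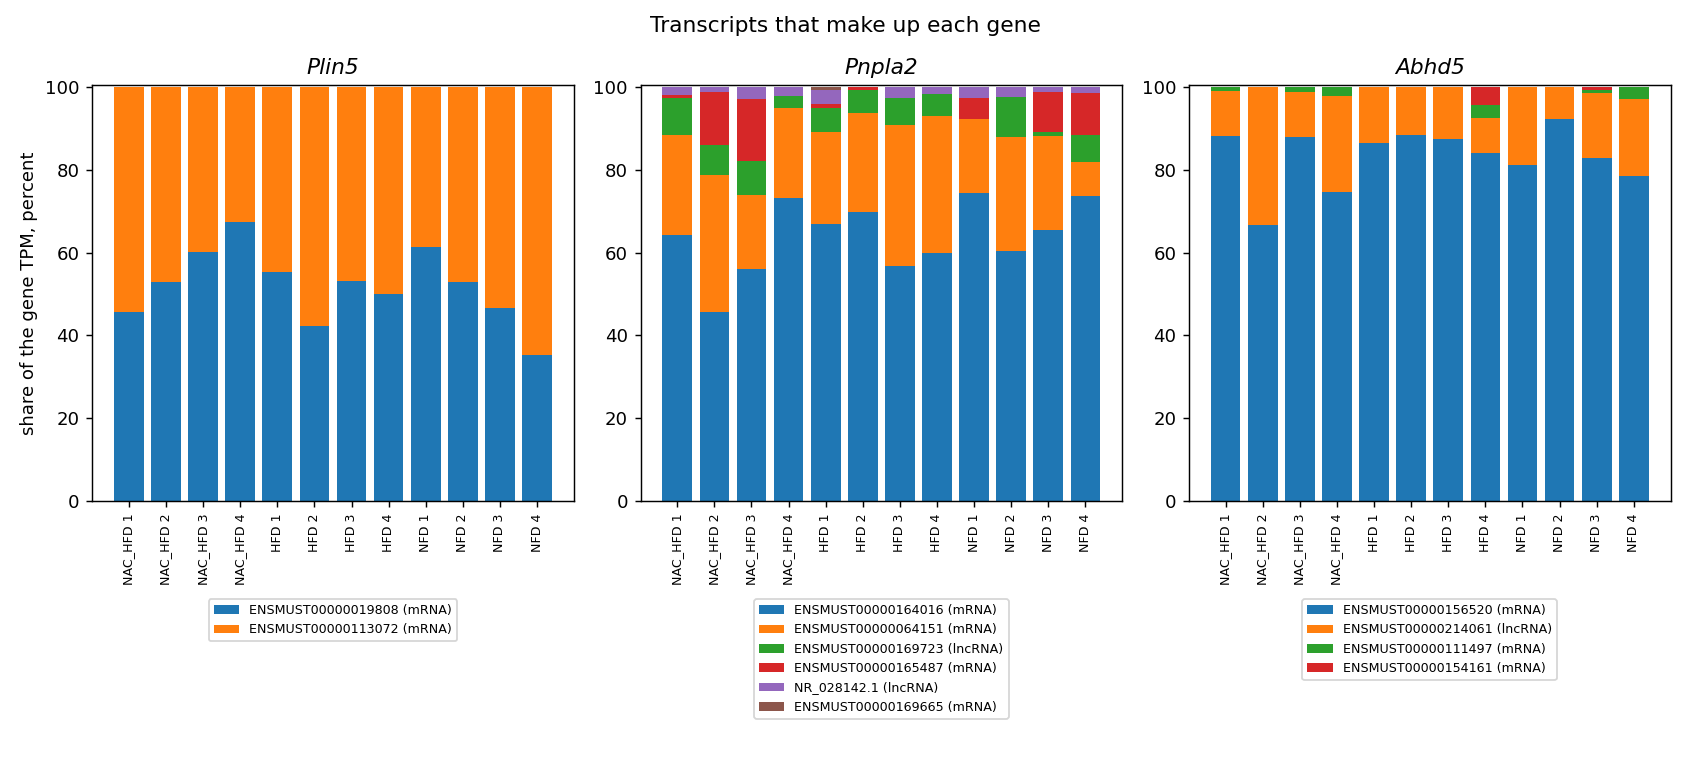
Share of the gene's TPM (vertical axis, percent) held by each transcript of Plin5, Pnpla2 and Abhd5 in the 12 libraries (horizontal axis), coloured by transcript. In Pnpla2 the minor transcript ENSMUST00000165487 shows in some NAC_HFD and NFD libraries and is nearly absent from HFD, and in Abhd5 the lncRNA share is largest in NAC_HFD replicate 2.

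Related droplet genes were read from wider lists, each with its own count. A list outside the 10 held coat genes, CIDE genes and Fitm1, the paralogue of Fitm2. Of its 3 tested genes, 1 rose in HFD over NFD, Fitm1, and neither the coat gene Plin4 nor the CIDE gene Cidec passed. Fitm1 was at 26.0, 14.98, 17.3 and 20.9 TPM in NAC_HFD, 35.1, 25.8, 34.7 and 35.7 TPM in HFD, and 15.03, 12.8, 6.59 and 15.7 TPM in NFD. Every HFD liver was above every NFD liver, with a difference of 1.37 ± 0.24 (SE) and a limma adjusted p of 0.0119. Its NAC_HFD minus HFD difference of -0.72 did not pass (limma adjusted p = 0.175). Plin4, a perilipin of adipocytes and muscle, was at 5.95, 2.61, 2.98 and 6.00 TPM in NAC_HFD, 7.46, 8.30, 8.01 and 7.99 TPM in HFD, and 6.17, 3.60, 0.83 and 5.20 TPM in NFD, and its HFD minus NFD difference of 1.02 had a limma adjusted p of 0.172. Cidec, a fusion protein of large droplets, averaged 1.90 TPM in NAC_HFD, 10.6 TPM in HFD and 5.71 TPM in NFD, without passing. Plin1 and Cidea did not reach the floor of the test. Cidea ran from 0.14 to 0.52 TPM in NAC_HFD, 0.83 to 3.49 TPM in HFD and 0 to 0.15 TPM in NFD. Every HFD library thus lay above every library of the other groups, a difference that was not tested. Fitm1 is also a muscle gene: the 5 skeletal muscle markers, of which 4 were in the table, summed to at most 0.29 TPM in any library. Of the 4 tested adipocyte markers, 2 passed for HFD minus NFD: Cfd by 3.03 (limma adjusted p = 0.0200) and Car3 by 1.56 (0.00316). The other 2 did not: Fabp4 differed by 0.20 (limma adjusted p = 0.540) and Lpl by -0.21 (0.386). For NAC_HFD minus HFD Cfd differed by -2.46 (limma adjusted p = 0.0870), and 0 of the 4 had a positive difference. The part of adipocyte genes in the Fitm1 difference was not tested.

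Of 25 tested droplet-associated proteins, 2 rose and 0 fell in HFD over NFD. Spg20, which encodes the droplet-binding protein spartin, had a difference of 0.61 (limma adjusted p = 0.0112), and Dhrs3, a droplet-bound retinal reductase, one of 0.43 (limma adjusted p = 0.0450), whose call was lost without any of 7 single libraries, with an adjusted p of up to 0.140 without HFD replicate 1, and under 5 processing alternatives, with one of up to 0.0949. For NAC_HFD minus NFD 2 rose, Spg20 by 0.54 (limma adjusted p = 0.0158; 0.0548 with only these 2 groups fitted) and Dhrs3 by 0.57 (0.0110), and 2 fell: Mettl7b, a droplet-bound methyltransferase, by 0.53 (0.00711), and Hspa8, the constitutive chaperone of chaperone-mediated autophagy, by 0.76 (0.0173; 0.0553 without NAC_HFD replicate 4 and 0.0625 with only these 2 groups fitted). None of the 8 droplet formation genes or the 12 other lipases and hydrolases passed in any comparison, with the smallest HFD minus NFD p for Vmp1 (-0.48, limma adjusted p = 0.0739) and Bscl2, seipin (0.39, 0.118), and for Mgll (0.34, 0.0899) and Abhd6 (0.38, 0.119), both monoacylglycerol hydrolases.

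Regulators of these genes were counted the same way. Of 18 tested, 1 rose in HFD over NFD, Foxo1, the insulin-restrained transcription factor, by 0.63 (limma adjusted p = 0.0235). Its call was lost without any of 5 single libraries, with an adjusted p of up to 0.0786 without HFD replicate 4, and without the floor on TPM (0.0544). In NAC_HFD over NFD Foxo1 rose by 0.99 (0.00328) and Cebpb, a transcription factor of the acute phase and adipogenesis, by 0.99 (0.0306; up to 0.0642 without NFD replicate 3, 1 of 6 libraries whose loss ended the call, and up to 0.0967 under 3 processing alternatives). Ppara, the fatty acid receptor that drives Plin2 and fatty acid oxidation genes, had a HFD minus NFD difference of 0.63 that did not pass (limma adjusted p = 0.0675). Of 15 PPARalpha and fasting targets, 2 rose in HFD over NFD: Vnn1 by 1.14 (0.0248; up to 0.0876 without HFD replicate 1, 1 of 5 such libraries, and 0.0523 without the floor) and Pdk4 by 0.59 (0.0465; up to 0.150 without HFD replicate 1, 1 of 10 such libraries, and up to 0.0854 under 6 processing alternatives). Pdk4 averaged 1.53 TPM over the 12 libraries, near the floor of the test, with NFD livers at 0.97, 1.57, 0.93 and 0.99 TPM. Of the 15, 12 had a positive difference, and the other 3 were Ehhadh, a peroxisomal oxidation enzyme (-1.15, limma adjusted p = 0.134), and the fatty acid hydroxylases Cyp4a14 (-0.85, 0.374) and Cyp4a10 (-0.44, 0.437). The median of the 15 was 0.30 in HFD over NFD, against 0.01 over all genes, and -0.36 for NAC_HFD minus HFD, against -0.08. Of 10 tested hypoxia targets 1 fell in NAC_HFD against NFD, P4ha1, a collagen prolyl hydroxylase subunit, by 0.67 (0.0201; 0.0580 without NFD replicate 1, lost also without NFD replicate 3, and 0.0614 with only these 2 groups fitted), and Vegfa, the endothelial growth factor, had a HFD minus NFD difference of -0.51 that did not pass (limma adjusted p = 0.0881). No gene of these lists passed for NAC_HFD against HFD, a comparison with 0 calls among all genes.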

How the data were processed

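RNA of 12 liver libraries was analysed, 4 per group, with groups and replicate numbers taken from the sample titles. The authors deposited TPM values per gene, per mRNA transcript and per lncRNA transcript. Per the submitters' processing notes, fastp, HISAT and RSEM were used with build GRCm38; the sources used here do not give the role, version or settings of each. TPM keeps no read depth, so no counting interval or detection floor could be given, and a value of 0 is called listed at 0. The authors deposited tables of HFD over NFD and NAC_HFD over HFD that hold, per the file headers, a ratio, its log2 value, a p-value and an adjusted p-value for each transcript; the sources used here do not name the test. They list only p under 0.05 and changes of at least 1 in size on the log2 scale.

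Genes with at least 1 TPM in at least 4 libraries (11376 of 19252) were fitted on log2(TPM + 1) with limma 3.58.1 in R 4.3.3 (lmFit, eBayes with trend and robust), as 3 group means over all 12 libraries. The two-sided p of each comparison was adjusted over all tested genes (Benjamini-Hochberg). The mRNA transcripts (31185 of 53634 with at least 0.1 TPM in at least 4 libraries) were fitted on log2(TPM + 0.1). These fold changes understate the change of low genes. Ratios were tested by exact permutation, and the 45 pairs of members by 100000 permutations. The fit was tested on simulated data. The members and the gene lists were chosen with earlier results of these data known. Members are named in every case; of the wider lists, the genes past the threshold and those with the smallest p in HFD over NFD are named; the genes most like Plin2 and Fitm2 are the 5 with the highest r. Promoters and gene positions come from RefSeq tables (GRCm38.p6), in which all 10 symbols matched. Alternatives were other pseudocounts, floors, scalings, samples in the fit, a replicate block, plain moderation and each library left out.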

Additional observations from a re-analysis of the deposited data

Results flagged for a closer look

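Within the groups of 4 libraries, 1 of 30 sets of member values (10 genes in 3 groups) had a library far from the other 3 by Dixon's test, which chance gives in about 1 of 20 groups. Pnpla2 was at 31.3 TPM in NAC_HFD replicate 1, below the other NAC_HFD livers at 37.2 to 38.0 TPM and inside the HFD range of 29.4 to 35.0 TPM. The gap to the nearest library was 0.889 of the group's range. In the same library G0s2 was at 237.2 TPM, against 49.7 to 87.4 TPM in the other NAC_HFD livers.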

How the results depend on the processing

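No member passed the threshold under another pseudocount, floor, scaling, sample choice or moderation; Fitm2 for HFD minus NFD alone was called without NAC_HFD replicate 3 (members called 0 to 1 with 1 library left out) and with the replicate number as a block (1 member). The labels do not say that the numbers pair the samples. The correlation of deviations between same-numbered libraries ran from -0.173 to 0.179, and between other libraries it reached 0.219. With 4 libraries per group these values cannot decide whether the numbers share an order of handling. With this block 3 genes were called for NAC_HFD minus HFD, and 13, 3 and 4 mRNA transcripts for HFD minus NFD, NAC_HFD minus HFD and NAC_HFD minus NFD. Gene calls were 316 for HFD minus NFD (90 to 375 with 1 library left out, lowest without HFD replicate 1), 0 for NAC_HFD minus HFD (0 to 64, highest without NAC_HFD replicate 1) and 601 for NAC_HFD minus NFD (211 to 618, lowest without NAC_HFD replicate 4). Transcript calls were 64 (13 to 91), 6 (3 to 15) and 126 (20 to 172) in the same order. Without a floor, 168 genes were called for HFD minus NFD and 289 for NAC_HFD minus NFD, and with only the 2 groups compared 188 for NAC_HFD minus NFD. A transcript floor of 1 TPM gave 99, 0 and 226 calls, and a transcript pseudocount of 1 TPM gave 2 for NAC_HFD minus HFD. Of the gene calls, 78.8% were higher in HFD than NFD, and 69.4%, 61.8% and 69.4% under median-of-ratios, quantile and gene-table scaling; for NAC_HFD minus NFD it was 33.3%, and 57.4%, 51.6% and 29.1%.

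The alternatives for genes outside the 10 and for the 2 pairs of members were chosen after seeing the data. No difference whose sign turned had passed the threshold. Under median-of-ratios scaling the signs that turned were those of Hsd17b13 for HFD minus NFD (-0.00529), Cideb (0.00455) and Spg20 (0.0250) for NAC_HFD minus HFD, and Plin5 (0.0541) and Bscl2 (0.0725) for NAC_HFD minus NFD. Quantile scaling turned Hilpda (0.0636) and Spg20 (0.00675) for NAC_HFD minus HFD, and Plin5 (0.0393) and Bscl2 (0.0463) for NAC_HFD minus NFD, and gene-table scaling turned Hsd17b13 for HFD minus NFD (-0.0168). With 1 library left out, the signs that turned were those of Hsd17b13 (-0.116 to 0.109) and Hilpda (-0.00257 to 0.147) for HFD minus NFD, of Hilpda (-0.192 to 0.0172), Cebpb (-0.0899 to 0.253) and Vegfa (-0.0731 to 0.132) for NAC_HFD minus HFD, and, for NAC_HFD minus NFD, of Plin3 (-0.0475 to 0.191), Plin5 (-0.202 to 0.127), Cideb (-0.0563 to 0.0998), Pnpla2 (-0.0961 to 0.113), Abhd5 (-0.0271 to 0.363), Hilpda (-0.103 to 0.0995), Plin4 (-0.196 to 0.460), Vmp1 (-0.0631 to 0.127) and Bscl2 (-0.0939 to 0.102). The cause of these changes was not tested.

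For the 2 pairs, the alternatives gave an r between Pnpla2 and G0s2 of -0.896 to -0.788 under 4 other scales and -0.912 to -0.860 with 1 library left out, and an r between Plin2 and Abhd5 of -0.837 to -0.787 and -0.887 to -0.695. Of the 120 alternatives of the ratios, none brought a ratio past the threshold. A lone ratio at the smallest exact p of 0.0286, for 4 against 4 libraries, could not pass after adjustment over the ratio tests. Leaving a library out does not lower that smallest p, so no conclusion is drawn from the lack of a pass. With 1 library left out, no ratio moved by 1 SD or more. Depth is unknown, so counting error could not be set apart from the spread between libraries, which limits Hilpda and the minor transcripts most.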
